A study of Mus musculus with 45 samples.

Results

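The comparison described here set the prefrontal cortex (termed cortex) of heterozygous Shank3-mutant mice (Shank3-HT) against that of wild-type mice (WT). It rested on 10 of the 45 RNA-Seq samples of the series, 5 Shank3-HT and 5 WT, chosen by their tissue and genotype labels, and on the 16507 genes that averaged 10 or more normalized counts across the 15 cortex samples. All mice were C57BL/6J males of 13 weeks. WT mice carried the intact gene, Shank3-HT mice carried 1 allele lacking exons 14–16, and homozygous mice (Shank3-HM, 5 cortex samples) carried the deletion on both alleles. No Cre driver or tissue restriction is named for the deletion in the sources used here. Hippocampus and striatum samples of the same 3 genotypes, 5 of each, served to check the tissue label, to set the cortical Shank3-HT values beside those of other regions, and in an alternative fit of all samples. Pooling of mice is not mentioned in the sources used here, and nothing in the labels ties a replicate number in one region to the same mouse in another. Each genotype had 5 mice by the study's description, so the 3 regions may come from the same animals, and the comparisons between regions treat their samples as separate.

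Shank3 is a large scaffold protein of excitatory postsynapses. Its PDZ domain binds the SAPAP (Dlgap) proteins, which in turn bind PSD-95, and its proline-rich and SAM regions bind Homer, cortactin and other Shank molecules, so that glutamate receptors are linked to the actin cytoskeleton of the dendritic spine. Loss of 1 copy of the human gene is a cause of Phelan-McDermid syndrome and of autism spectrum disorder, which makes the heterozygous mouse the dosage that corresponds to the patients.

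The exons removed in the mutant are shown whole because they define the genotype compared. In the GENCODE M21 annotation (GRCm38), Shank3 (ENSMUSG00000022623) lies on the plus strand of chromosome 15, from 89499623 to 89560261. Its transcript of 7365 bases has 22 exons, and exons 14, 15 and 16 of that transcript are coding exons that together hold 341 bases, or 4.63% of it, a length that leaves a remainder of 2 when divided by 3. They encode a part of the protein that includes PDZ sequence. The sequences are those of the reference transcript, 5′ to 3′, with no capitals because the whole of each is the deleted part. They lie at chr15:89531626-89531708, chr15:89532095-89532219 and chr15:89532329-89532461, in that order.
Exon 14: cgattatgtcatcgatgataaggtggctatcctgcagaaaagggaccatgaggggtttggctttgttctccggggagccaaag
Exon 15: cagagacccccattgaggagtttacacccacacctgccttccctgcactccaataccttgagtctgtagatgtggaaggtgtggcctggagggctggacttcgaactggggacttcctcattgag
Exon 16: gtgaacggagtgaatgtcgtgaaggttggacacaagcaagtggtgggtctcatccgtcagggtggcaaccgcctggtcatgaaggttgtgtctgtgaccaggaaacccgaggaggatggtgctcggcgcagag
Whether the study numbered the exons by this transcript is not stated in the sources used here. The values analysed were totals per gene over all transcripts, so they measured Shank3 RNA as a whole and not the deleted exons.

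The values were normalized counts, that is, read counts per gene that the authors had divided by a scaling factor for each sample. Their totals ran from 27772591 to 28286035 in Shank3-HT cortex and from 27870411 to 28479721 in WT cortex, and they do not give the sequencing depth, which is unknown. Samples of 1 genotype varied by a median of 9.44% (coefficient of variation over genes) in Shank3-HT and 9.57% in WT. The tissue label was read against markers of excitatory neurons and of the other regions. The vesicular glutamate transporter Slc17a7 ran from 35107 to 40525 in the 10 samples, against a WT mean of 2833 in striatum, and Prox1, a transcription factor of dentate granule cells, ran from 305 to 397, against a WT mean of 3511 in hippocampus. Replicate 3 of Shank3-HT held the choroid plexus transcript Ttr at 932, against 1.004 to 104 in the other 9 samples, and replicate 2 of Shank3-HM, which entered the filter on the mean, the estimate of the spread and the comparisons with Shank3-HM, held the striatal receptor transcript Drd1 at 2483, against 119 to 225 in the other 14 cortex samples.

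Shank3 itself was the gene with the smallest p in the cortex. WT samples held 6985, 7519, 8365, 8717 and 8437 normalized counts of Shank3. Shank3-HT samples held 5748, 6607, 6090, 6422 and 5822. Every Shank3-HT sample lay below every WT sample, with the highest Shank3-HT value under the lowest WT value. The Shank3-HT mean of 6138 ± 373 (SD, n = 5) was 76.7% of the WT mean of 8005 ± 725 (SD, n = 5), a log2 difference of −0.38 with an SE of 0.066. A two-sided exact permutation test of this gene over 5 against 5 samples gave p = 0.00794, the smallest value that this design allows. In bulk tissue, fewer cells that express a gene and less of its RNA per cell cannot be told apart.

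In the Shank3-HM cortex, Shank3 samples held 4066, 4446, 4171, 3689 and 3897 normalized counts, all below the Shank3-HT samples. The Shank3-HM mean of 4054 ± 285 (SD, n = 5) was 66.0% of the Shank3-HT mean, with a log2 difference of −0.60 (SE 0.066, limma adjusted p = 0.000934). RNA of the gene was therefore still counted in homozygous tissue, at 46.1% to 55.5% of the WT mean. The midpoint of the WT and Shank3-HM means was 6029, or 75.3% of the WT mean, beside 76.7% for Shank3-HT. The fit took the midpoint of the mean log2 levels instead, which lies below that of the counts. Shank3-HT lay 0.11 above this log2 midpoint (SE 0.057, limma unadjusted p = 0.0738, adjusted p = 0.9999), so a departure from equal steps on the log2 scale was not detected at this number of samples, and additivity of the counts themselves was not tested.

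Shank3 was also lower in both other regions of Shank3-HT mice. In the hippocampus the Shank3-HT mean was 5886 ± 225 against 7944 ± 359 in WT (SD, n = 5 each), or 74.1%, and in the striatum it was 8725 ± 581 against 12317 ± 606, or 70.8%. Exact permutation tests gave p = 0.00794 in each. The cortical log2 difference was smaller in size than the hippocampal one by 0.05 (SE 0.090) and than the striatal one by 0.12 (SE 0.090). With limma unadjusted p = 0.568 and 0.197, neither contrast between regions passed the test, which does not show that the effects were equal.

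**Figure D1:**
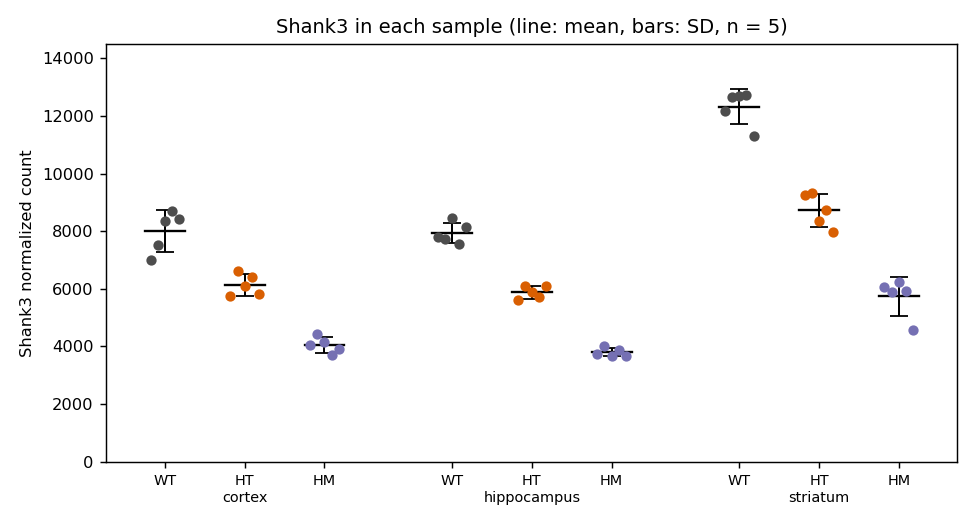
Shank3 normalized counts (y axis, linear, from 0) in every sample of the 3 genotypes in cortex, hippocampus and striatum; points are samples, horizontal lines means and bars SD (n = 5). In each region the 5 Shank3-HT points sit between the WT and the Shank3-HM points with no overlap.

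Across all genes the Shank3-HT cortex was close to the WT cortex. Of 16507 genes tested, 0 passed an adjusted p of 0.05 (limma on log2(normalized count + 1), with the 15 cortex samples sharing 1 estimate of the spread; 0% called), and Shank3 and Zfp729a, the 2 genes with the smallest p, both had an adjusted p of 0.288. At an unadjusted p under 0.05 there were 443 genes (2.68%), of which 240 were higher (1.45%) and 203 lower (1.23%) in Shank3-HT, where evenly spread p-values would give 825. The median log2 difference was −0.0011, with a 5th percentile of −0.25 and a 95th percentile of 0.25. All 5 Shank3-HT samples lay above all 5 WT samples in 49 genes (0.297%) and below them in 55 genes (0.333%), together 104 genes (0.63%). A log2 difference of at least 0.5 in either direction was seen in 418 genes (2.53%).

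The number of differentially expressed genes (DEGs) was 1 or 2 in 3 of the alternative fits. With array quality weights, which give less weight to samples that stand apart, 2 genes passed, Shank3 and Zfp729a (limma adjusted p = 0.0417 for both). With the 10 Shank3-HT and WT samples alone, 1 gene passed, Zfp729a (adjusted p = 0.0477). With all 45 samples of the 3 regions in the fit, an alternative chosen after seeing the data, 1 gene passed (0.00599%), Shank3 (adjusted p = 0.00790), and Gpr139 had an adjusted p of 0.0551. Between Shank3-HT and WT cortex, no gene other than Shank3 and Zfp729a passed in any of the settings run.

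**Figure D2:**
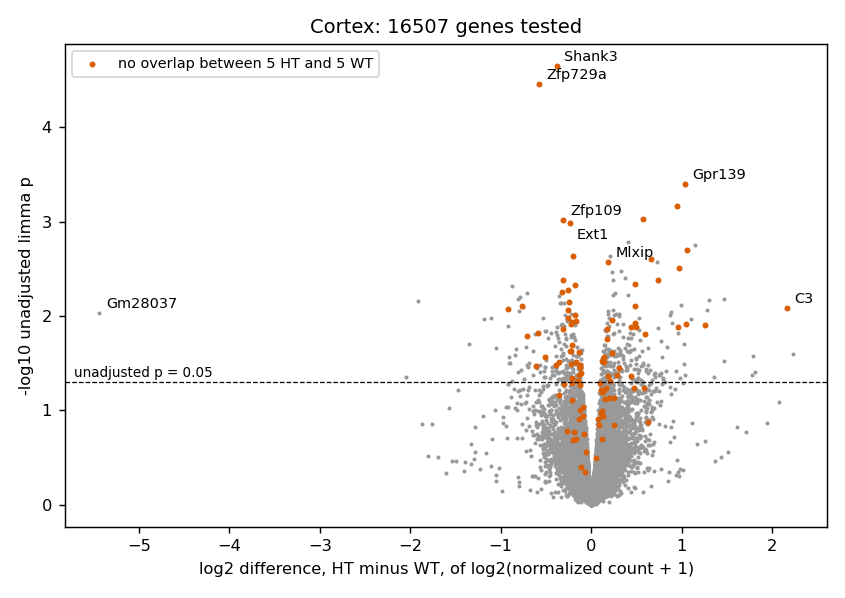
Log2 difference between Shank3-HT and WT cortex (x axis) against −log10 of the unadjusted limma p (y axis) for the genes tested; orange points are genes whose 5 Shank3-HT and 5 WT samples do not overlap. Shank3 and Zfp729a stand highest, both on the lower side, and most genes lie close to a difference of 0.

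Zfp729a (ENSMUSG00000021510, chromosome 13, from 67612763 to 67637791, minus strand) encodes a zinc finger protein of a large rodent cluster. WT cortex samples held 489, 625, 632, 581 and 584 normalized counts. Shank3-HT cortex samples held 371, 401, 407, 366 and 405. The groups did not overlap, and the Shank3-HT mean was 67.0% of the WT mean (log2 difference −0.57, SE 0.104). Shank3-HM cortex samples, at 395, 418, 450, 581 and 561, lay above the Shank3-HT mean of 390 in all 5 samples and overlapped both other groups, so the value with both alleles deleted was not further from WT than with 1 (log2 difference of Shank3-HM from WT, −0.29; both comparisons share the WT samples).

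In the other regions Zfp729a varied over as wide a range within a genotype as it differed between genotypes in the cortex. WT hippocampus samples ran from 419 to 695 and WT striatum samples from 376 to 636. The log2 difference between Shank3-HT and WT was 0.15 (SE 0.170) in the hippocampus and −0.18 (SE 0.170) in the striatum. The cortical effect differed from the hippocampal one by −0.72 (SE 0.240, limma adjusted p = 1) and from the striatal one by −0.39 (SE 0.240). Both contrasts hold the cortical difference by which the gene was chosen. Of the 39 genes tested within 1 Mb of Zfp729a, most of them zinc finger genes of the cluster, Zfp729a itself was the 1 gene at an unadjusted p under 0.05 (2.56%, against 2.68% of all genes). Its neighbour Zfp729b was at 343 ± 14.03 in WT and 362 ± 23.7 in Shank3-HT, and Zfp738 was at 1483 ± 104 and 1574 ± 294 (SD, n = 5). Of the 31-base words in the Zfp729a transcripts, 26.7% also occurred in transcripts of other genes, mostly Zfp738, so the split of reads among these relatives is uncertain.

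Gpr139 (chromosome 7), an orphan receptor that couples to Gq and is known from the habenula and striatum, had the smallest p among genes higher in Shank3-HT. WT cortex samples held 12.2, 15.3, 24.1, 16.5 and 11.9 normalized counts. Shank3-HT samples held 28.8, 31.4, 48.5, 35.4 and 24.7. The lowest Shank3-HT value exceeded the highest WT value by a small margin (24.7 against 24.1), and the mean was 211% of the WT mean (log2 difference 1.04, SE 0.239, limma unadjusted p = 0.000404, adjusted p = 0.9997). Shank3-HM cortex ran from 37.1 to 67.7, with a mean of 51.3. In the same fit the gene passed between Shank3-HM and WT (log2 difference 1.63, limma adjusted p = 0.0208), a comparison that shares the WT samples. The 67.7 came from replicate 2 of Shank3-HM, the sample with Drd1 at 2483, and the other 4 ran from 37.1 to 61.4. The gene was far more abundant in the striatum, at 370 to 712 in WT, and its Shank3-HT effect there was a log2 difference of 0.16 (SE 0.202), with 0.21 (SE 0.202) in the hippocampus. The cortical effect exceeded these by 0.88 (SE 0.285) and 0.83 (SE 0.285), neither of which passed (limma adjusted p = 1), and both contrasts hold the cortical difference by which the gene was chosen.

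Because Gpr139 is abundant in the striatum, the striatal markers were read beside it. Of 30 tested markers of striatal spiny projection neurons, 0 were at an unadjusted p under 0.05 between Shank3-HT and WT cortex, and their median log2 difference was −0.016, which turned to 0.015 without replicate 2 of Shank3-HT and was −0.055 without replicate 3 of WT. Drd1, the D1 dopamine receptor, was at 152, 166, 143, 198 and 184 in WT and at 208, 188, 178, 209 and 119 in Shank3-HT. For Drd1, replicates 1 and 4 of Shank3-HT lay above the WT range, replicate 5 below it, and replicates 2 and 3 inside it. Replicate 3 had the most Gpr139 of the Shank3-HT samples, and replicate 5 the least. The part of striatal tissue in the Gpr139 values was not tested. Of the 20 tested class A receptors that couple to Gq in brain, Gpr139 was the 1 gene at an unadjusted p under 0.05 (5%, against 2.68% of all genes), and since the list was read because of it, nothing is read from that share. The serotonin receptor Htr2a was at 991 ± 73.0 against 1050 ± 48.2 in WT and the muscarinic receptor Chrm1 at 5215 ± 453 against 5526 ± 229 (SD, n = 5).

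Ext1 (chromosome 15), a polymerase that elongates heparan sulfate chains, was lower in Shank3-HT. WT samples held 1289, 1331, 1367, 1275 and 1280 normalized counts. Shank3-HT samples held 1238, 1090, 954, 1186 and 1097. The groups did not overlap, and the Shank3-HT mean was 85.1% of the WT mean (log2 difference −0.24, SE 0.061, limma unadjusted p = 0.00103, adjusted p = 0.9997). Shank3-HM samples, from 1141 to 1210, also lay below every WT sample. Ext1 shares chromosome 15 with Shank3 and lies from 53064038 to 53346159, far from it. Among 36 tested genes of heparan sulfate synthesis and its core proteins, 8 had a log2 difference above 0 (22.2%, against 49.6% of all genes), with a median of −0.03 against −0.0011 for all genes, or −0.07 without replicate 5 of WT. The list was read because of Ext1, so nothing is read from Ext1 being in it. Besides Ext1, 1 member was at an unadjusted p under 0.05 (1.23% of all genes were lower at that level), the low-level syndecan Sdc1 at 16.03 ± 4.35 against 26.6 ± 12.1 in WT (SD, n = 5).

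The 12 genes with the smallest p among those with all 5 Shank3-HT samples above all WT samples were mostly low in level: 10 of 12 had a WT mean under 100. Besides Gpr139 they were 4930522L14Rik, Trim12a, Acaa1b, D7Bwg0826e, Mlxip, Cdc20, B830042I05Rik, Pcdhb2, Ccna2, C3 and Msantd2, with log2 differences from 0.19 to 2.17 and unadjusted p from 0.000404 to 0.0111. Since they were chosen by these values, the differences are a description with no further test.

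Mlxip, which encodes the glucose-responsive transcription factor MondoA, was the most abundant of them. Its WT samples ran from 1109 to 1206 and its Shank3-HT samples from 1245 to 1408, a mean of 114% of WT. Msantd2, a gene with a Myb-like domain, had a mean of 430 ± 25.1 in Shank3-HT and 366 ± 28.6 in WT (SD, n = 5), with no overlap (407 to 466 against 327 to 399). Trim12a, a TRIM family gene related to antiviral Trim5, held 55.1, 52.5, 54.0, 51.5 and 58.1 in WT and 72.6, 81.2, 89.3, 96.0 and 68.8 in Shank3-HT. It shares 15.7% of its words with other genes, and 4930522L14Rik shares 25.5%.

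Both cyclin-related genes of the group were low. Cdc20, the activator of the anaphase-promoting complex, had a mean of 17.7 ± 3.18 against 8.66 ± 2.13 in WT, and Ccna2, cyclin A2, had 59.0 ± 9.22 against 41.8 ± 4.66 (SD, n = 5). In the striatum both had log2 differences of the opposite sign, −0.49 for Cdc20 and −0.47 for Ccna2. The contrast of cortical and striatal effects did not pass for either (limma adjusted p = 0.633 for both), and it holds the cortical difference by which the genes were chosen. Of the 31-base words of Cdc20, 25.5% also occur in other genes, mostly Gm7856.

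C3, the complement component, was at 2.98, 3.44, 0.863, 0.865 and 3.13 in WT and at 17.7, 4.22, 98.3, 4.09 and 8.45 in Shank3-HT. The highest value came from replicate 3 of Shank3-HT, which also held the most Ttr, and the other 4 lay between 4.09 and 17.7, above the WT range but at a low level. The part of choroid plexus in this value was not tested. Pcdhb2, a clustered protocadherin, ran from 55.9 to 68.7 in Shank3-HT against 37.6 to 49.0 in WT. Acaa1b, a peroxisomal thiolase, had a mean of 15.6 against 6.84, and 40.0% of its 31-base words also occur in Acaa1a transcripts.

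The 12 leading genes on the lower side were higher in level, and 2 of 12 had a WT mean under 100. Besides Shank3, Zfp729a and Ext1 they were Zfp109, Sertad2, H2-K1, Mon2, Gmds, 2810029C07Rik, Rasgef1b, 2610203C22Rik and Gm29394, with log2 differences from −0.92 to −0.18 and unadjusted p from 2.24e-05 to 0.00832. Gm29394, which gave the −0.92, shares 71.8% of its 31-base words with other genes, so the assignment of its reads is uncertain.

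Zfp109, a zinc finger gene on chromosome 7, held 216, 204, 204, 200 and 220 in WT and 172, 175, 145, 172 and 178 in Shank3-HT. Its Shank3-HM samples, from 193 to 201, lay above every Shank3-HT sample and overlapped the WT samples. Sertad2, a transcriptional co-regulator, had a mean of 732 ± 38.1 in Shank3-HT against 843 ± 32.5 in WT, with 842 ± 51.6 in Shank3-HM (SD, n = 5). H2-K1, a class I histocompatibility molecule, was also lowest in Shank3-HT, at 472 ± 29.9 in Shank3-HT, 587 ± 52.3 in WT and 602 ± 96.9 in Shank3-HM. Of its 31-base words 22.8% occur in transcripts of other genes, and 11.1% in those of H2-D1.

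Mon2, a regulator of trafficking between endosomes and the Golgi apparatus, ran from 2298 to 2488 in Shank3-HT against 2494 to 2913 in WT. The gap between its groups was thus 2488 to 2494. Gmds, the first enzyme of GDP-fucose synthesis, was at 142 ± 6.34 in Shank3-HT and 169 ± 5.06 in WT (SD, n = 5). Rasgef1b, an exchange factor for Rap GTPases, was at 1304 ± 123 against 1545 ± 119, and its Shank3-HM mean was 1266. The noncoding RNA 2810029C07Rik, at 228 ± 14.5 against 286 ± 22.9, was the gene besides Shank3 whose Shank3-HT effect was also lower at an unadjusted p under 0.05 in both other regions (log2 differences of −0.28 in hippocampus and −0.32 in striatum, limma unadjusted p = 0.0278 and 0.0125).

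**Figure D3:**
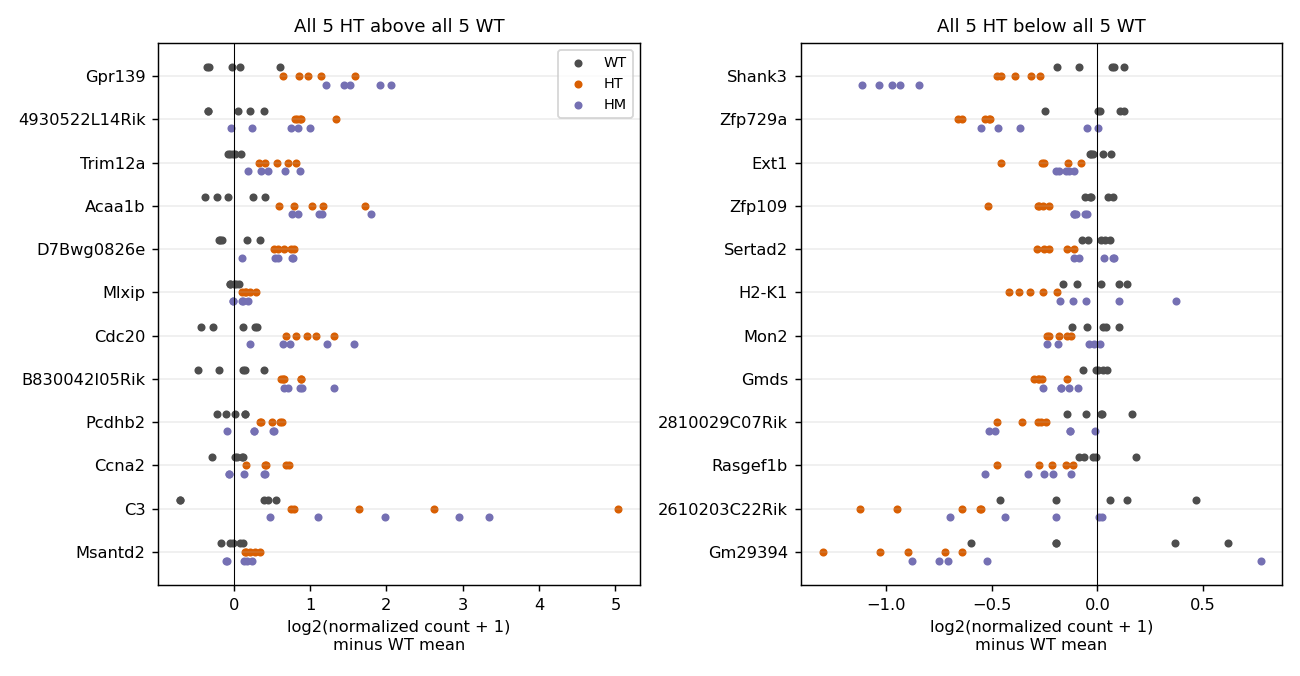
Log2(normalized count + 1) of each cortex sample minus the WT mean (x axis) for the 12 leading genes on each side (rows); points are samples, grey WT, orange Shank3-HT and purple Shank3-HM. By selection the orange and grey points of a row do not overlap; the purple points overlap the orange ones in every row except Shank3, Zfp109 and H2-K1.

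The Shank3-HM samples entered the choice of these genes through the shared estimate of the spread and the filter on the mean. Of the 24 genes, 6 differed between Shank3-HM and Shank3-HT at an unadjusted p under 0.05, against 4.87% of all genes: Shank3 and Gpr139 were further from WT in Shank3-HM, and Zfp729a, Zfp109, Sertad2 and H2-K1 were nearer to WT. The genes were chosen for extreme Shank3-HT values, which enter this contrast too, so nothing is read from the count. Over all genes, 1 gene passed between Shank3-HM and Shank3-HT (0.00606%), and it was Shank3. Against the log2 midpoint of WT and Shank3-HM, 0 genes passed (limma, adjusted p under 0.05) and 511 were at an unadjusted p under 0.05 (3.1%). Zfp729a had the smallest p there, with a log2 difference of −0.43 (unadjusted p = 0.000166, adjusted p = 0.9999).

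The hippocampus and striatum, which took no part in the choice but may come from the same mice, gave mixed directions. Acaa1b was not tested in the fit of all 3 regions because of its low level. Of the other 11 leading higher genes, 6 had a log2 difference above 0 in the hippocampus (52.2% of all genes) and 4 in the striatum (48.2% of all genes), and 0 of them were higher at an unadjusted p under 0.05 in either (3.2% and 4.86% of all genes). Of the 12 leading lower genes, 6 were below 0 in the hippocampus (47.7% of all genes) and 11 in the striatum (51.8% of all genes), with 2, Shank3 and 2810029C07Rik, at an unadjusted p under 0.05 in each (1.98% and 2.99% of all genes). Rasgef1b ran the other way in the hippocampus, at 292 ± 37.0 in Shank3-HT against 246 ± 26.02 in WT (SD, n = 5, limma unadjusted p = 0.0131). The leading higher genes Cdc20 and Ccna2 ran the other way in the striatum (limma unadjusted p = 0.0494 and 0.00446).

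As a test of the difference itself, the Shank3-HT effect in cortex was set against that in each other region over 16708 genes. None passed an adjusted p of 0.05 (limma), with 560 genes at an unadjusted p under 0.05 for the hippocampus (3.35%) and 578 for the striatum (3.46%). A Shank3-HT effect particular to the cortex was therefore not shown for any gene. In the same fit 4 genes passed between Shank3-HT and WT in the hippocampus (0.0239%) and 11 in the striatum (0.0658%), Shank3 among them in both.

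**Figure D4:**
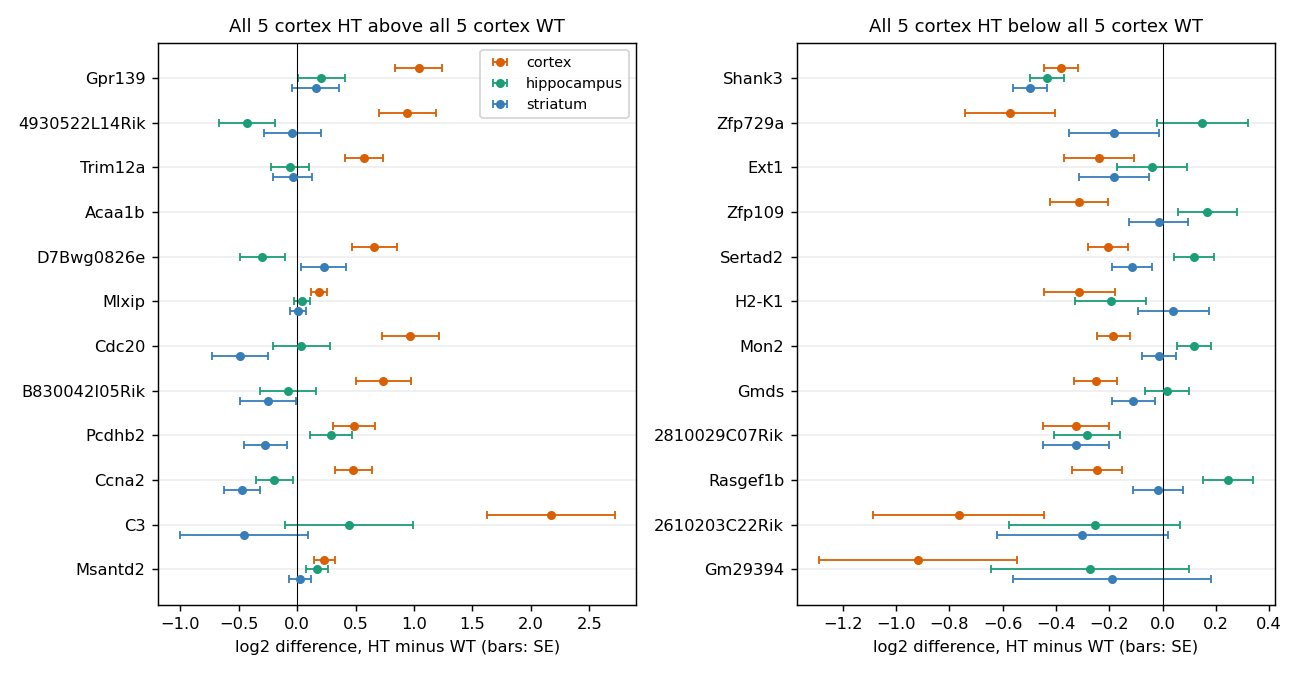
Log2 difference between Shank3-HT and WT (x axis, bars SE, fit of 45 samples) in cortex, hippocampus and striatum for the 12 leading cortical genes on each side (rows), with the row of Acaa1b empty because it was not tested in that fit. Shank3, 2810029C07Rik, Ext1, 2610203C22Rik and Gm29394 lie below 0 in all 3 regions. Most leading higher genes sit near 0 or below outside the cortex.

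Genes with the largest fold differences at a mean of at least 100 were near-identical to other genes, and several were listed at 0 in some samples of a group. Gm28037, a readthrough transcript, was listed at 0 in all 5 Shank3-HT samples and at 108, 779, 0, 101 and 16.6 in WT. It shares 95.4% of its 31-base words with other genes, mostly the ribosomal gene Rpl24. Fam205a3, which shares 100% of its words with Fam205a2, was at 0 in 1 WT sample and between 335 and 649 in the other 4. Gm9794 shares 92.1% with Rpl23, Ppp1ccb 99.0% with Ppp1cc, Gm45837 98.5% with other genes, mostly Pde2a, and Gm10222, a nuclear copy of mitochondrial sequence, 100%. For these 6 genes the assignment of reads is uncertain, and their unadjusted limma p ran from 0.00927 for Gm28037 to 0.720 for Gm10222.

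The gene lists that follow were made from general knowledge of cortical cells and synapses, and each is described by its counts and its median log2 difference beside those of all genes tested (49.6% above 0, 2.68% at an unadjusted p under 0.05, median −0.0011). No member of any list passed an adjusted p of 0.05.

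Among the 22 tested postsynaptic scaffold genes, the partners of Shank3, 1 was at an unadjusted p under 0.05, and that was Shank3 itself. The median was −0.04, or −0.02 without replicate 3 of Shank3-HT, and 6 of 22 lay above 0. Dlg4, which encodes PSD-95, was at 24735 ± 585 in Shank3-HT and 25408 ± 537 in WT (SD, n = 5). Shank1, the paralog of Shank3, was at 24934 ± 1312 against 25393 ± 2960. The SAPAP gene Dlgap4 was at 8621 ± 244 against 9049 ± 343, and the ARF exchange factor Iqsec1 at 10898 ± 597 against 10130 ± 369.

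The AMPA and kainate list and the metabotropic glutamate receptor list leaned to the lower side by small amounts. Of 22 AMPA and kainate receptor genes and their auxiliary subunits, 3 lay above 0 and the median was −0.06, or −0.03 without replicate 2 of WT. None was at an unadjusted p under 0.05 (limma), and the lowest p was that of the auxiliary subunit Cnih2 at 2938 ± 316 against 3140 ± 118 in WT (SD, n = 5). The AMPA subunit Gria2 was at 18716 ± 756 against 18860 ± 1100. Of 7 metabotropic glutamate receptors, 1 lay above 0 and the median was −0.10, with Grm5, a receptor linked to Shank3 through Homer, at 4206 ± 259 against 4564 ± 384. The 6 NMDA receptor genes had a median of −0.02, which turned to 0.0020 without replicate 4 of WT and was −0.04 without replicate 5 of Shank3-HT. Grin2b was at 15949 ± 1752 against 16670 ± 747 and Grin2d at 432 ± 31.9 against 388 ± 29.4.

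GABA receptor and inhibitory postsynapse genes had a median of −0.03, with 4 of 22 above 0 and 0 at an unadjusted p under 0.05. The median was −0.01 without replicate 3 of Shank3-HT. Presynaptic release genes had a median of −0.01, or −0.03 without replicate 2 of Shank3-HT, with 13 of 33 above 0, and Snap25 at 94396 ± 3421 against 93042 ± 2775 in WT (SD, n = 5).

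Neurexins, neuroligins and leucine-rich-repeat adhesion proteins, which bridge the synaptic cleft, had a median of −0.07, or −0.04 without replicate 3 of Shank3-HT, with 8 of 27 above 0 and 2 at an unadjusted p under 0.05, both lower (7.41%). Lrrc4b held 3746, 3964, 3548, 3520 and 3569 in WT and 3530, 3302, 3298, 3431 and 3344 in Shank3-HT. Slitrk5 was at 1756 ± 141 against 1944 ± 134 (SD, n = 5). In both genes the groups overlapped by 1 Shank3-HT sample, replicate 1.

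Of 25 neuropeptide genes, 21 were tested, and 2 were at an unadjusted p under 0.05, both lower (9.52%). Adcyap1, which encodes PACAP, held 565, 650, 481, 592 and 598 in WT and 607, 469, 339, 431 and 369 in Shank3-HT. Grp, the gastrin-releasing peptide, was at 71.2 ± 17.6 against 111 ± 22.3 (SD, n = 5). Both overlapped between the groups. The median of the list was −0.04, or −0.02 without replicate 2 of Shank3-HT and −0.08 without replicate 1 of Shank3-HT.

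Autism risk genes were read in 2 lists. Of 47 that act at synapses or as channels, Shank3 included, 12 lay above 0, the median was −0.04 (−0.02 without replicate 2 of WT) and 1, Shank3, was at an unadjusted p under 0.05. Of 51 chromatin and transcription genes, 26 lay above 0, the median was 0.00, and 1 was higher and 1 lower at an unadjusted p under 0.05. These were the H3K27 demethylase Kdm6b, at 1061 ± 174 against 845 ± 195, and Tbl1xr1, a subunit of the NCoR complex, at 2071 ± 185 against 2319 ± 239 (SD, n = 5). Ctcf was the member whose groups did not overlap, with 1948 to 2011 in Shank3-HT and 1765 to 1946 in WT, at a log2 difference of 0.07.

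Cytosolic ribosomal protein genes leaned to the higher side by a small amount. Of 79, 67 lay above 0, the median was 0.04 with members from −0.46 to 0.38, and 0 were at an unadjusted p under 0.05. The list's mean log2 level minus that of all genes overlapped between groups, with 1 Shank3-HT sample above every WT sample. It was 2.549 ± 0.065 in Shank3-HT and 2.504 ± 0.080 in WT (SD, n = 5). Rps24 was at 4869 ± 233 against 4531 ± 268 and Rpl4 at 9364 ± 261 against 9370 ± 271 (SD, n = 5). The median was 0.01 without replicate 2 of WT and 0.07 without replicate 1 of WT. Nuclear genes of the respiratory chain and ATP synthase had a median of 0.01, with 51 of 75 above 0 and 0 at an unadjusted p under 0.05. That median was −0.00074 without replicate 5 of WT and 0.04 without replicate 1 of WT. The 78 mitochondrial ribosome genes had a median of −0.03, or −4e-05 without replicate 1 of WT, and 31 above 0, with Mrpl34 and Mrpl39 higher at an unadjusted p under 0.05 (2.56%). The 13 mitochondrially encoded genes had a median of −0.06 as deposited and of 0.00 after quantile normalization, with 0.0018 without replicate 5 of Shank3-HT and −0.10 without replicate 1 of WT. mt-Co1 was at 811530 ± 57009 against 819880 ± 38893.

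Activity-regulated genes, the early response to neuronal firing, had a median of 0.14 with 27 of 33 above 0, and 0 at an unadjusted p under 0.05. Arc held 15119, 4396, 3366, 9868 and 15660 in WT and 19071, 13594, 8210, 9826 and 16849 in Shank3-HT. The WT samples spanned a wide range, which held 3 of the 5 Shank3-HT values. Without replicate 2 of WT the list's median was 0.02, and without replicate 5 of WT it was 0.23. Egr1 was at 13079 ± 2546 against 11767 ± 2746 (SD, n = 5). Circadian clock genes (median 0.06, 14 of 18 above 0) and glucocorticoid response genes (median 0.10, 16 of 20 above 0) leaned the same way with 0 at an unadjusted p under 0.05. The circadian median was 0.02 without replicate 5 of WT. That of the glucocorticoid list was 0.05 without replicate 2 of WT and 0.17 without replicate 4 of WT. All 3 lists hold Per1, which was at 4584 ± 1010 against 3871 ± 768.

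Oligodendrocyte genes had a median of 0.11, with 32 of 38 above 0, and 3 higher and 1 lower at an unadjusted p under 0.05 (10.5%). Mbp, the myelin basic protein, held 32622, 35170, 37007, 41706 and 32126 in WT and 38614, 41926, 51148, 38970 and 36868 in Shank3-HT. The highest of all was replicate 3 of Shank3-HT, and the highest WT sample exceeded 3 of the 5 Shank3-HT samples. Without that replicate the list's median was 0.05. Plekhb1 was at 5312 ± 564 against 4628 ± 340 and the tight junction protein Cldn11 at 1638 ± 286 against 1364 ± 166 (SD, n = 5). Cspg5, at 7354 ± 202 against 7949 ± 370, was the member on the lower side. Mbp had a WT mean of 71994 in hippocampus and 99149 in striatum, and the part of dissection in these values was not tested.

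Markers of other cells gave no gene past the adjusted threshold. Astrocyte genes had a median of 0.01 (16 of 30 above 0, and −0.01 without replicate 5 of Shank3-HT). Excitatory neuron genes had −0.03 (11 of 28, 0.00065 without replicate 3 and −0.06 without replicate 1 of Shank3-HT). Inhibitory neuron genes had −0.01 (12 of 29, and 0.01 without replicate 3 of Shank3-HT). Each of these lists had 0 genes at an unadjusted p under 0.05. Microglial genes had a median of −0.05 (5 of 30 above 0, 0 at an unadjusted p under 0.05, −0.03 without replicate 2 of WT), and endothelial and mural genes −0.02 (10 of 30, and 0.02 without replicate 5 of WT), with Emcn lower at 155 ± 13.2 against 193 ± 28.1 (SD, n = 5, limma unadjusted p = 0.020). All 5 red blood cell genes lay below 0, with a median of −0.32, or −0.20 without replicate 2 of Shank3-HT. Hba-a1 held 1556, 1133, 1122, 1155 and 1321 in WT and 972, 696, 1035, 908 and 1246 in Shank3-HT. Choroid plexus genes had a median of 0.18 over 12 genes, and of 0.02 without replicate 3 of Shank3-HT. Markers of neighbouring claustrum and insula (median −0.08, or −0.02 without replicate 2 of Shank3-HT, 2 of 12 above 0) and of hippocampus (−0.03, or 0.0089 without replicate 4 of WT, 8 of 18) had 0 and 1 genes at an unadjusted p under 0.05. The 1 was Tdo2, at 23.5, 36.6, 9.78, 4.94 and 23.2 in WT and 2.98, 4.06, 1.261, 3.29 and 8.46 in Shank3-HT.

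**Figure D5:**
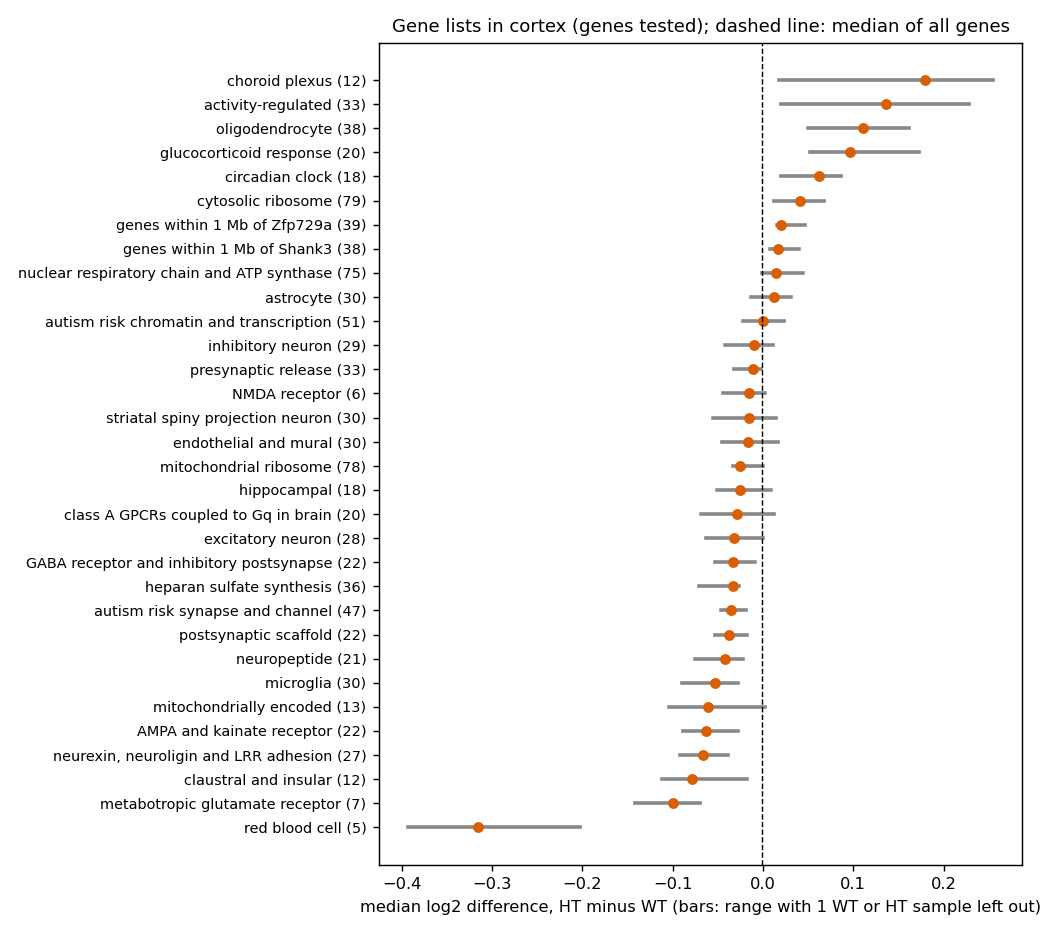
Median log2 difference between Shank3-HT and WT cortex (x axis) of each gene list (rows, number of genes tested in brackets); bars span the medians with 1 WT or Shank3-HT sample left out, and the dashed line is the median of all genes. Most medians lie within 0.1 of 0, the red blood cell list stands lowest at −0.32, and the activity-regulated and choroid plexus lists reach close to 0 when 1 sample is left out.

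Genes next to Shank3 on chromosome 15 were read in the same fit. Of 38 genes tested within 1 Mb of it, 3 were at an unadjusted p under 0.05 (7.89%, against 2.68% of all genes): Shank3 itself, Chkb and Lmf2. Shank3 is the targeted gene and belongs to this list by definition, so nothing is read from that share. Chkb, choline kinase beta, held 708, 607, 710, 686 and 636 in WT and 806, 712, 763, 746 and 750 in Shank3-HT. The groups did not overlap (as in 0.63% of all genes), but by a margin of 710 to 712, and the Shank3-HM mean was 654. Lmf2 was at 381 ± 55.2 against 445 ± 47.9 (SD, n = 5) and its groups overlapped. The nearest tested neighbours on each side, C230037L18Rik at 77.5 against 75.5 in WT and Acr at 29.7 against 31.2, had log2 differences of 0.0093 and −0.04.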

How the data were processed

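Poly(A) RNA of single brain regions was prepared with a stranded mRNA kit. The authors deposited 1 table of 18135 genes by 45 samples, whose signal values are DESeq2-normalized counts made from transcript estimates of Salmon on GRCm38. The submitters' processing notes name Salmon 1.1.0, R 3.6.2 and DESeq2 1.26.0. Whole reads could not be recovered from the values, because at most 27.1% of low values fell within 0.05 of a whole multiple of 1 step (10% by chance), so count models were not used. The table heads the homozygous columns KI. Of the gene identifiers, 18120 matched GENCODE M21.

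log2(value + 1) of genes with a mean of at least 10 was fitted by genotype with limma 3.58.1 (R 4.3.3, intensity trend, Benjamini-Hochberg adjustment over all genes tested). Contrasts between regions used 9 groups of 45 samples. Shank3 had a two-sided exact permutation test. The code was tested on simulated data.

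Named genes were Shank3, Zfp729a, Ext1 and Gpr139, the 12 genes on each side with the smallest p among those without overlap, the 3 on each side with the largest fold difference at a mean of at least 100, up to 2 members of each list in each direction by p and its 2 most abundant members, genes called in any comparison, and chromosomal neighbours. Members and lists were chosen with earlier results of these data known. Limma p-values set a difference of means against the spread within groups, estimated from all samples of a fit, which in the main fits included Shank3-HM. Equal replicate numbers were not treated as pairs in the main fits. Alternatives to the scaling, filter, pseudocount, trend, weights and samples are given in the closing section.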

Additional observations from a re-analysis of the deposited data

Results flagged for a closer look

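Of 120 groups of 5 samples examined (60 for the named genes and 60 for list scores, which are the mean log2 level of a list minus that of all genes), 12 had 1 sample whose gap to the others exceeded 0.71 of the group's range on the log2 scale, where chance gives about 6 in groups that were not selected. Many of these genes were chosen for extreme values in the same samples, so nothing is read from the excess. None of these differences was explained or tested further.

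Among genes, 4930522L14Rik was at 54.3 in replicate 2 of Shank3-HT, above the other 4 samples. Ccna2 was at 33.8 in replicate 4 of WT, below the others. Zfp109 was at 145 in replicate 3 of Shank3-HT and Gmds at 153 in replicate 2 of Shank3-HT, the first below and the second above the rest of its group. Fam205a3 in replicate 3, Gm9794 in replicate 2, Ppp1ccb in replicate 3 and Gm10222 in replicate 5 of WT were each listed at 0, while the other WT samples held values. All 4 genes are near-identical to another gene.

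Among lists, the GABA receptor score was 3.22 and the metabotropic glutamate receptor score 1.51 in replicate 3 of Shank3-HT, both below the rest of the group, and the oligodendrocyte score was 1.90 in the same sample, above the rest. In WT the oligodendrocyte score was 1.66 in replicate 4, above the rest. Replicate 3 of Shank3-HT thus accounts for 4 of the 12.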

How the results depend on the processing

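The count of genes called between Shank3-HT and WT cortex was 0 in the fit reported and in every alternative except 3: 2 with array quality weights (698 genes at an unadjusted p under 0.05), 1 with only Shank3-HT and WT samples (633) and 1 with all 45 samples, added after seeing the data (502). Leaving out each Shank3-HT or WT sample, or replicate 2 of Shank3-HM, gave 0 to 0. Genes at an unadjusted p under 0.05 numbered 586 without replicate 2 of Shank3-HM and 283 at a mean of at least 100. Shank3 kept its log2 difference of −0.38, between −0.43 and −0.35 with 1 sample left out. Its limma adjusted p was 0.0417 with array weights (−0.39) and 0.00790 with 45 samples (−0.38). The call of Shank3 between Shank3-HM and Shank3-HT, and the 0 calls against the log2 midpoint and between regions, held under every alternative run. The directions of 3 near-identical copies reversed: Gm9794 gave −0.018 without replicate 2 of WT (1.95 at the other end of the range with 1 sample left out), Ppp1ccb −0.086 without replicate 3 of WT (1.72 at the other end) and Gm10222 1.06 without replicate 4 of Shank3-HT (−3.27 at the other end). In each of these 3 the sample left out was one listed at 0. The causes of these and the other changes were not tested.

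Within the cortex, equal numbers did not deviate together (correlations of 0.00055 to 0.0735 between Shank3-HT and WT), and 1 of 5 samples correlated best with its own number. Across regions, samples of the same genotype and number had a consensus correlation of 0.121 in the fit of 45 samples. Whether they came from the same mice is not known. With the replicate number as a block, 0 genes were called (541 at an unadjusted p under 0.05), and an exact sign-flip test of Shank3 over the 5 numbered pairs gave −0.38 with p = 0.0625, the smallest that 5 pairs allow. The block changed no other call.

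Depth is unknown, so no limit can be set for low genes such as Gpr139, Cdc20 and C3.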
